A study of Mus musculus with 2 samples.

Results

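The cells described here carried at least 3 unique molecular identifiers (UMIs) of Atoh1 and lay outside a gate on the neuropeptide genes Gal and Cck. They were 188 of the 2913 cells kept from dissociated adult mouse cochlear cultures. Barcodes under 500 UMIs or under 300 genes were removed, as were those with over 20% of UMIs from mitochondrially encoded genes. A cell was inside the gate, and so left out, with at least 30 Gal UMIs and at least 10 Cck UMIs per 10000 UMIs. The cells were thus chosen by their measured Atoh1, Gal and Cck counts, whose levels are given as a description only.

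Whole cochleae of C57BL/6J mice aged 4-6 weeks were cultured as explants, and single cells were profiled from the sensory epithelium. In the cocktail group the cultures received VPA at 1.5 mM, LiCl at 8 mM, FSK at 20 µM and the small interfering RNAs siFIR and siMxi1 at 0.02 µM each. After 4 days of this treatment an adenovirus carrying Atoh1 (ad.Atoh1) was given for 2 weeks. In the vehicle group, sterile water with 0.1% DMSO took the place of the cocktail for 4 days, before the same 2 weeks of ad.Atoh1. Every culture thus received the Atoh1 virus, and there was no group without it. Each group was 1 library of pooled cells from 5 cultures, prepared with 10x Genomics 3′ v3.1 chemistry. Cells are not assigned to cultures in the files, so no difference below has a replicate check and no p-value is given. Intervals are 95% intervals that cover counting error only.

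Atoh1 encodes a basic helix-loop-helix transcription factor that starts hair cell differentiation in the embryonic inner ear. It binds E-box motifs, and among the genes it is known to act through are the transcriptional co-regulator Hes6 and the Notch ligand Dll1. In the developing cochlea, Notch ligands on new hair cells hold the neighbouring supporting cells back from the same fate. Adenoviral vectors enter many cell types, so cells that carry Atoh1 after infection need not be sensory. Reads from the vector and from the mouse gene could not be told apart in these counts.

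The 250 bases before and 50 bases after the RefSeq start of 5 genes that the results turn on are printed here. Hes6, Dll1, Mgat5b and Rasd2 belong to the list of hair cell regulators, and Tchh is 1 of 2 genes whose level, given total UMIs, followed that of Atoh1 in both libraries. Capitals mark matches to the E-box letters CAGATG, which on the opposite strand read as CATCTG, and to the E-box letters CAGCTG, which read the same on both strands. Both strands were searched, and matches to these letters cannot share a base.
Hes6: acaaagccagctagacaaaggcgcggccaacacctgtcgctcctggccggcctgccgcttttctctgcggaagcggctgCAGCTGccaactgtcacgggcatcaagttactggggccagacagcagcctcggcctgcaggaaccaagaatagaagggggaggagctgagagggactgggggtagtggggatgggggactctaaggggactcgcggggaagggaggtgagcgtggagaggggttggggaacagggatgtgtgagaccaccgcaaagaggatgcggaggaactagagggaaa
Dll1: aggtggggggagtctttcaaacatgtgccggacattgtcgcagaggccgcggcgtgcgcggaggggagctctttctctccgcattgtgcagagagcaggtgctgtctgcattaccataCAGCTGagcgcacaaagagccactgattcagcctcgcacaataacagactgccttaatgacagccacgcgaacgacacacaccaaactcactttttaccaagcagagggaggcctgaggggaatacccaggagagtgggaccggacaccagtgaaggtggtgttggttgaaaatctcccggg
Mgat5b: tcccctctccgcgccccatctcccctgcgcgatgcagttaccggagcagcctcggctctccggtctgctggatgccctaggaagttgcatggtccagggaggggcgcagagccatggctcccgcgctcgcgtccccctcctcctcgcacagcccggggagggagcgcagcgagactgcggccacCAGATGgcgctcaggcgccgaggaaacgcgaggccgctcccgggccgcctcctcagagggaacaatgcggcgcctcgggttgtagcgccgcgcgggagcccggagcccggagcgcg
Rasd2: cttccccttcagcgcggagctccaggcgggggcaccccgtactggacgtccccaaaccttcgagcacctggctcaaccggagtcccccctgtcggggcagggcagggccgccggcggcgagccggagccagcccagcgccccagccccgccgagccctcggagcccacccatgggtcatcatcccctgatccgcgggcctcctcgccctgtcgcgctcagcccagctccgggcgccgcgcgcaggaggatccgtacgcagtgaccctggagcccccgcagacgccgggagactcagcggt
Tchh: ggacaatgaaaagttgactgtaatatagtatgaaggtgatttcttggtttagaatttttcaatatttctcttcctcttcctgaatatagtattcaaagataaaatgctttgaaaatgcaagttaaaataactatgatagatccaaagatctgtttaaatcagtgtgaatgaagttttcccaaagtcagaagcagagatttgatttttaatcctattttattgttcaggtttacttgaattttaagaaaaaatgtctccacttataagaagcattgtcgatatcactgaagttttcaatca
The windows lie at chr1:91413989-91414288 on the minus strand (Hes6), chr17:15376883-15377182 on the minus strand (Dll1), chr11:116918613-116918912 on the plus strand (Mgat5b), chr8:75213694-75213993 on the plus strand (Rasd2) and chr3:93442080-93442379 on the plus strand (Tchh), in build GRCm38.p6. The windows shown for Hes6, Dll1 and Mgat5b each held 1 match, and those for Rasd2 and Tchh held 0. The table has a second start for both Hes6 and Dll1, and these windows held 1 match for Hes6 and 0 for Dll1. Of 32851 such windows in the RefSeq table, 30.6% held at least 1 match, so a single match is common. A match describes letters, not binding.

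The cocktail library held 1403 barcodes and 19625208 UMIs, and 1329 cells were kept at a median of 10391 UMIs. The vehicle library held 1688 barcodes and 23108868 UMIs, and 1584 cells were kept at a median of 12267 UMIs. The submitters stated about 1400 and 1700 recovered cells. The libraries shared 0 barcodes. A doublet caller marked 0 cocktail and 2 vehicle cells, under 0.5% of cells, and so found too few to judge doublets by; none was a cell described here. The label names sensory epithelium, but both libraries held several tissues. Kept cells with at least 5000 UMIs were scored for markers after thinning to 5000 UMIs, and shallower cells were left out. At least 3 of 20 pan-epithelial markers were detected in 58.3% of scored cocktail cells and 47.3% of scored vehicle cells. At least 3 of 18 mesenchymal markers were detected in 28.5% and 35.6%. A UMI in a cell can also come from free RNA in the droplet, which was not subtracted.

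Atoh1 (6:64729125-64731245, plus strand, GRCm38) was detected in 287 cocktail cells and 319 vehicle cells, and reached 3 UMIs in 129 cocktail cells and 111 vehicle cells. Of those, 28 cocktail and 24 vehicle cells were inside the Gal and Cck gate. The remaining 101 cocktail cells made up 7.60% of kept cells (6.23% to 9.16%), and the remaining 87 vehicle cells made up 5.49% (4.42% to 6.73%). These 2 sets of cells are called Atoh1-high below. In the Atoh1-high cells, Atoh1 ran from 3 to 57 UMIs with a median of 6 in the cocktail library, and from 3 to 72 UMIs with a median of 5 in the vehicle library. At the lower edge, 26 cocktail and 22 vehicle Atoh1-high cells had exactly 3 Atoh1 UMIs, at a median of 1.27 and 1.28 per 10000 UMIs. The 31 cocktail and 47 vehicle cells outside the gate with 2 UMIs had medians of 0.900 and 1.10 per 10000. At the gate, 17 cocktail and 10 vehicle Atoh1-high cells were past the Gal threshold with Cck at most at 9.85 and 9.87 per 10000. Another 12 cocktail and 21 vehicle cells were past the Cck threshold with Gal at most at 23.8 and 28.1 per 10000.

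Atoh1-high cells were compared, within each library, with cells of the same total UMIs that had 0 Atoh1 UMIs. Each Atoh1-high cell was matched to 3 such cells, giving 303 in the cocktail library and 261 in the vehicle library. Of these, 28 cocktail and 24 vehicle cells lay inside the Gal and Cck gate, where Atoh1-high cells by rule could not lie. Median depth was 25680 UMIs in Atoh1-high cells and 24198 UMIs in matched cells of the cocktail library. In the vehicle library it was 20186 UMIs in Atoh1-high cells and 20196 UMIs in matched cells. Shares of cells with list markers are given after each cell was thinned to 5000 UMIs, which left out 6 cocktail and 9 vehicle Atoh1-high cells.

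By their markers the Atoh1-high cells were not of 1 kind. In the cocktail library, 42.1% of Atoh1-high cells (32% to 52.7%) had at least 3 epithelial markers, against 58.2% of matched cells. In the vehicle library the shares were 37.2% of Atoh1-high cells (26.5% to 48.9%) and 47.9% of matched cells. At least 3 mesenchymal markers were found in 16.8% of cocktail and 21.8% of vehicle Atoh1-high cells, against 36.5% and 38.0% of matched cells. At least 3 glial markers were found in 4.21% of cocktail and 11.5% of vehicle Atoh1-high cells, against 6.32% and 14.5% of matched cells. The clearest gap was in cells that reached 3 markers of none of these lists. They were 37.9% of cocktail Atoh1-high cells (28.1% to 48.4%) against 4.91% of matched cells, and 35.9% of vehicle Atoh1-high cells (25.3% to 47.6%) against 9.83% of matched cells. Cells with both epithelial and mesenchymal markers were rare, at 1 of 95 cocktail and 0 of 78 vehicle Atoh1-high cells. The second allows a share of up to 3.85%, taking 3 counts as the limit behind a count of 0.

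**Figure D1:**
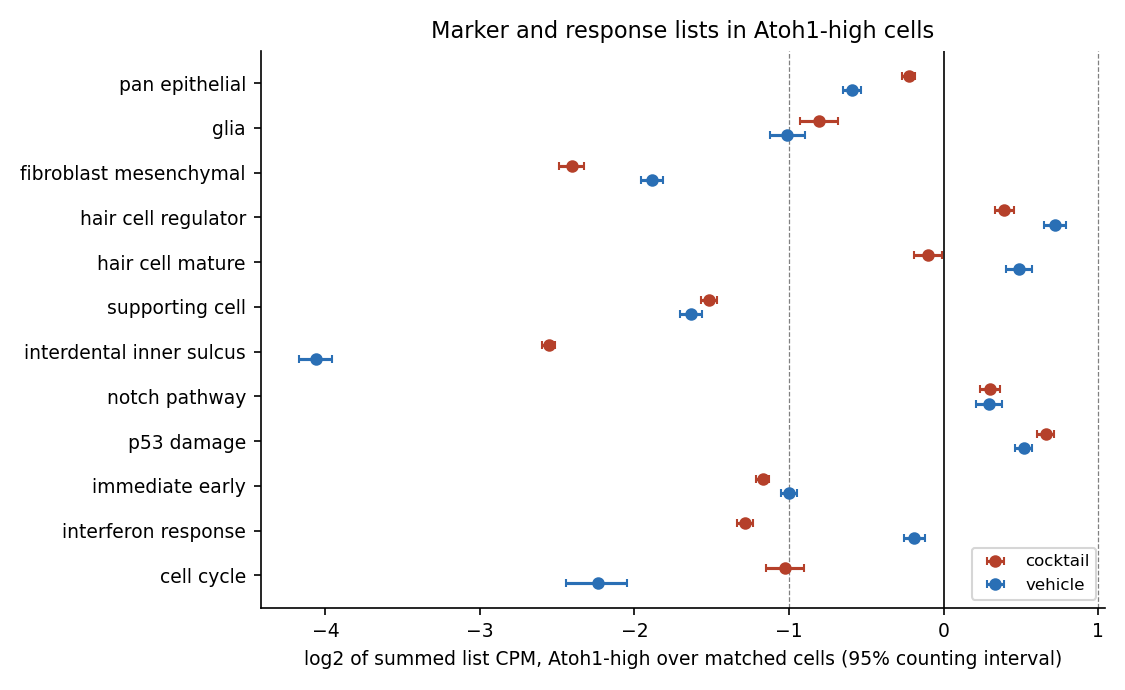
Summed level of each marker list in Atoh1-high cells over matched cells with 0 Atoh1 UMIs, on a log2 scale, for the cocktail and the vehicle library; bars through the points are 95% counting intervals. Mesenchymal and interdental lists lie far below 0 in both libraries, and the hair cell regulator list lies above 0 in both.

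Across all genes, 649 of 13082 tested genes (4.96%) were at least 2-fold higher in Atoh1-high than in matched cells in both libraries, and 1305 (9.98%) were at least 2-fold lower in both. Within the cocktail library alone 8.83% were at least 2-fold higher and 14.3% lower, and within the vehicle library 9.6% and 15.3%. With matched cells taken only from outside the gate, 785 of 13050 tested genes (6.02%) were higher in both libraries and 1362 (10.4%) lower. Levels are counts per 1000000 UMIs (CPM) summed over the cells of a group. For single genes, levels and log2 ratios leave out the 1 cell of each group in which the gene took the largest share of UMIs, since single cells with extreme counts were common. The median log2 ratio over all tested genes was 0.011 in the cocktail library and -0.00019 in the vehicle library.

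By summed level and by median log2 ratio, fibroblast and mesenchymal genes were the furthest below matched cells of the 3 identity lists. By median level per cell the epithelial list was further below, as given with that list. The mesenchymal list summed to 535 CPM in Atoh1-high and 2837 CPM in matched cocktail cells. In the vehicle library it summed to 956 and 3531 CPM. Of its 17 tested genes, 12 were at least 2-fold lower in both libraries and 0 were higher, with a median log2 ratio of -2.74 in cocktail and -1.92 in vehicle cells. Col1a2, a chain of type I collagen, stood at 14.3 CPM in Atoh1-high and 737 CPM in matched cocktail cells, and at 53.5 and 1026 CPM in the vehicle library. Lum, which encodes the collagen-binding proteoglycan lumican, stood at 5.71 CPM in Atoh1-high and 170 CPM in matched cocktail cells, and at 2.20 and 120 CPM in the vehicle library. Dcn, which encodes the related proteoglycan decorin, had log2 ratios of -3.73 in cocktail and -1.92 in vehicle cells. The intermediate filament gene Vim was also lower, with log2 ratios of -2.52 and -2.72. Zeb1, a transcription factor of the same list, went the other way at 0.51 (0.33 to 0.69) in cocktail and 0.24 (0.03 to 0.43) in vehicle cells.

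Glial genes were lower as well. Of 15 tested genes of that list, 3 were at least 2-fold lower in both libraries and 0 were higher, with medians of -0.94 in cocktail and -0.93 in vehicle cells. The cell adhesion gene Ncam1 had log2 ratios of -2.89 and -2.13. Sox10, a transcription factor of glia and of some otic epithelial cells, differed less, at -0.83 and -1.0.

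Epithelial genes lay on both sides of matched cells. Of 20 tested genes of the list, 1 was at least 2-fold higher in both libraries and 6 were at least 2-fold lower. Across all tested genes these shares were 4.96% and 9.98%. The median log2 ratios of the list were -0.40 in cocktail and -0.83 in vehicle cells. Its median level per cell was 381 CPM in Atoh1-high and 2010 CPM in matched cocktail cells. In the vehicle library it was 253 and 884 CPM. For the mesenchymal list these medians were 177 and 547 CPM in cocktail cells, and 392 and 804 CPM in vehicle cells. Epcam, an epithelial adhesion molecule, stood at 363 CPM in Atoh1-high and 768 CPM in matched cocktail cells, and at 311 and 577 CPM in the vehicle library. It was detected in 50.5% of cocktail and 42.5% of vehicle Atoh1-high cells, against 59.1% and 48.3% of matched cells. Cdh1, which encodes E-cadherin, had log2 ratios of 0.18 (-0.01 to 0.36) and -0.05 (-0.35 to 0.25), so no difference was detectable at this depth. The keratin genes Krt18 and Krt19 were lower, at -1.71 and -3.09 in cocktail cells; in vehicle cells Krt18 was at -1.38, and Krt19 had a UMI in 1 Atoh1-high and 40 matched cells. Esrp2, an epithelial splicing regulator, was the 1 gene higher in both, at 1.18 (0.28 to 2.05) and 2.94 (1.58 to 4.65).

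Genes of the interdental cells and inner sulcus, non-sensory epithelium beside the organ of Corti, were far lower. Of 12 tested genes, 11 were at least 2-fold lower in both libraries, with medians of -3.46 in cocktail and -2.93 in vehicle cells. At least 3 of these markers were found in 8.42% of cocktail and 8.97% of vehicle Atoh1-high cells, against 36.5% and 29.1% of matched cells. Epyc, which encodes the small proteoglycan epiphycan, stood at 12.2 CPM in Atoh1-high and 393 CPM in matched cocktail cells, and at 1.11 and 362 CPM in the vehicle library. Otog, a gene of the tectorial membrane, had log2 ratios of -4.02 and -4.69. The supporting cell list was split, with 3 of 20 tested genes at least 2-fold higher in both libraries and 6 at least 2-fold lower. Prox1, a transcription factor of pillar and Deiters' cells, was higher, at 1.26 (0.72 to 1.79) and 1.27 (0.71 to 1.82). Fgfr3, a receptor of the same cells, was at 1.27 and 1.69. Sox2, the prosensory and supporting cell factor, was lower, at -1.60 (-2.85 to -0.68) and -1.53 (-2.58 to -0.72). The calcium-binding protein gene S100a1 stood at 670 CPM in Atoh1-high and 2649 CPM in matched cocktail cells, and at 447 and 2090 CPM in the vehicle library.

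The list of hair cell regulators, which also holds genes of other kinds such as Rasd2 and Mgat5b, was higher in sum. The list summed to 1213 CPM in Atoh1-high and 924 CPM in matched cocktail cells, and to 1281 CPM in Atoh1-high and 777 CPM in matched vehicle cells. The log2 ratios of these sums were 0.39 (0.33 to 0.46) in cocktail and 0.72 (0.65 to 0.79) in vehicle cells. Of 14 tested genes, 4 were at least 2-fold higher in both libraries and 0 were lower; the medians were 0.42 in cocktail and 0.54 in vehicle cells. Rasd2, which encodes a small GTPase, stood at 61.6 CPM in Atoh1-high and 13.1 CPM in matched cocktail cells, and at 60.7 and 15.5 CPM in the vehicle library. A Rasd2 UMI was found in 30.7% of cocktail and 32.2% of vehicle Atoh1-high cells, against 11.9% and 9.58% of matched cells. Dll1, the Notch ligand, stood at 22.8 CPM in Atoh1-high and 7.20 CPM in matched cocktail cells, and at 15.3 and 6.95 CPM in the vehicle library. Its log2 ratios were 1.66 (1.09 to 2.23) and 1.15 (0.38 to 1.88). Mgat5b, which encodes a glycosyltransferase, was at 3.93 and 3.48, but was found in only 5 cocktail and 9 vehicle Atoh1-high cells. The fourth, the RNA-binding protein gene Rbm24, was at 1.03 (-0.25 to 2.20) and 1.41 (0.70 to 2.11).

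Hes6 differed less than these genes. It stood at 268 CPM in Atoh1-high and 189 CPM in matched cocktail cells, and at 236 CPM in Atoh1-high and 120 CPM in matched vehicle cells. The log2 ratios were 0.51 (0.37 to 0.64) in cocktail and 0.97 (0.79 to 1.15) in vehicle cells. In the cocktail library Hes6 was found in 53.5% of Atoh1-high and 52.1% of matched cells; in the vehicle library it was found in 60.9% and 44.4%. Gfi1, a zinc finger factor of maturing hair cells, was at 0.86 (-0.39 to 2.00) and 2.10 (0.92 to 3.37). Pou4f3, a factor that hair cells need to survive, had a UMI in 1 cocktail and 4 vehicle Atoh1-high cells, against 4 and 7 matched cells, and its intervals held 0. In the Notch list, 2 of 17 tested genes were at least 2-fold higher in both libraries, Dll1 and the glycosyltransferase gene Lfng, and 0 were lower. Across all tested genes these shares were 4.96% and 9.98%. The target gene Hes1 was at 0.30 and 0.27, and Rbpj, which encodes the DNA-binding partner of Notch, was at -0.98 and -0.78.

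Genes of mature hair cells gave no shared direction in summed level. Their sum was 527 CPM in Atoh1-high and 565 CPM in matched cocktail cells, and 919 and 655 CPM in the vehicle library. The sum left out no cell, and 1 vehicle Atoh1-high cell had 15 of the list's genes at 5000 UMIs and another had 11. The median level per cell was higher in both libraries, at 202 against 159 CPM in cocktail and 271 against 187 CPM in vehicle cells. Of 18 tested genes, 1 was at least 2-fold higher in both libraries and 4 were at least 2-fold lower. Across all tested genes these shares were 4.96% and 9.98%. The median log2 ratios were -0.43 and -0.09. Otof, which encodes the synaptic calcium sensor otoferlin, was the one higher, at 1.16 (0.63 to 1.68) and 1.33 (0.87 to 1.79). Among cells with at least 5 Atoh1 UMIs, however, Otof was at -0.46 (-1.55 to 0.42) in the vehicle library, which ends that shared call. Ptprq, a gene of the hair bundle, was lower, at -4.54 and -2.0. Pvalb, which encodes the calcium buffer parvalbumin, was at -0.65 (-0.81 to -0.49) in cocktail and 0.33 (0.16 to 0.49) in vehicle cells. The hair cell myosin genes Myo7a and Myo6 were at -0.66 (-2.16 to 0.46) and 0.34 (0.12 to 0.56) in cocktail cells, and at 0.81 (-0.23 to 1.76) and 0.24 in vehicle cells. Myo7a, Myo6 and Rbm24 fell outside the naming rule and were chosen after their values were seen.

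Tchh was the gene most evenly spread among those far higher in Atoh1-high cells. It encodes trichohyalin, a structural protein of the hair follicle and tongue epithelium. It stood at 145 CPM in Atoh1-high and 19.9 CPM in matched cocktail cells, and at 180 and 10.1 CPM in the vehicle library. The log2 ratios were 2.86 (2.58 to 3.15) and 4.15 (3.74 to 4.6). A Tchh UMI was found in 62.4% of cocktail and 71.3% of vehicle Atoh1-high cells, against 13.9% and 9.58% of matched cells, and the most in 1 Atoh1-high cell was 24 Tchh UMIs among cocktail and 25 among vehicle cells. Lor, which encodes loricrin of the cornified cell envelope, was found in 17.8% of cocktail and 14.9% of vehicle Atoh1-high cells, against 3.30% and 0.383% of matched cells. Both genes lie on chromosome 3, Tchh at 3:93442330-93449077 on the plus strand and Lor at 3:92080271-92083142 on the minus strand (GRCm38). Opcml, a cell adhesion gene, was found in 15.8% of cocktail and 19.5% of vehicle Atoh1-high cells, against 3.30% and 5.75% of matched cells, at log2 ratios of 3.53 and 3.64. Phlda2, an imprinted gene, was at 4.21 and 5.36, and the ATP-gated channel gene P2rx5 at 4.15 and 4.97.

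Other leading genes were high in a small number of cells. Slc8b1, which encodes a mitochondrial sodium-calcium exchanger, stood at 172 CPM in Atoh1-high and 9.27 CPM in matched cocktail cells, and at 263 and 7.89 CPM in the vehicle library. Gtf2i, which encodes a transcription factor, stood at 1447 CPM in Atoh1-high and 99.8 CPM in matched cocktail cells, yet it was detected in 73.3% of Atoh1-high and 77.2% of matched cells. The 1 cocktail cell left out of that level held 16131 Gtf2i UMIs by itself. Osgep, a gene of tRNA modification, was alike, at log2 ratios of 3.46 and 2.78. Exd1 was found in 8.91% of cocktail and 9.20% of vehicle Atoh1-high cells at log2 ratios of 4.69 and 5.71. Dnase1l3, which encodes a secreted nuclease, was found in 4 cocktail and 6 vehicle Atoh1-high cells, against 0 and 1 matched cells. The remaining names among the leading 12 were Arhgef4, at 3.46 and 4.6, and Hsd17b14, at 3.28 and 3.93.

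These concentrated genes went with cells of low complexity, which are described further below. With cells under 1500 genes at 5000 UMIs left out of both groups, Gtf2i was at 0.84 in cocktail and 1.21 in vehicle cells, Slc8b1 at 1.12 and 1.14, and Osgep at 0.49 and 0.09. Exd1 was then at 3.92 in cocktail cells and at 1.58 (-0.53 to 3.70) in vehicle cells. The same step left Tchh at 3.37 and 3.95, Rasd2 at 2.81 and 1.88, and Dll1 at 2.20 and 1.11. Hes6 was then at 0.78 and 1.15.

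The genes furthest lower in Atoh1-high cells included secreted, acute-phase and matrix genes. Lcn2, which encodes the iron-siderophore binder lipocalin 2, stood at 51.7 CPM in Atoh1-high and 7889 CPM in matched cocktail cells, and at 31.4 and 10296 CPM in the vehicle library. Spp1, which encodes osteopontin, stood at 21.4 CPM in Atoh1-high and 5027 CPM in matched cocktail cells, and at 64.3 and 2571 CPM in the vehicle library. The chemokine gene Cxcl12 was at -5.05 and -5.40, the chitinase-like gene Chil1 at -6.58 and -5.10, and Csmd1 at -5.68 and -6.27. Complement C3 was found in 1 cocktail and 3 vehicle Atoh1-high cells, against 81 and 37 matched cells, and Ly6a in 1 and 2, against 72 and 75. Wfdc18, Saa3 and the bone matrix gene Ibsp were each found in at most 3 Atoh1-high cells of a library.

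Immediate early genes, which are induced within minutes of a stimulus, were lower in Atoh1-high cells. Of 16 tested, 9 were at least 2-fold lower in both libraries and 0 were higher, with medians of -1.43 in cocktail and -1.26 in vehicle cells. Fos, a subunit of the AP-1 transcription factor, stood at 78.2 CPM in Atoh1-high and 617 CPM in matched cocktail cells, and at 107 and 693 CPM in the vehicle library. Genes of the cell cycle were lower too, 13 of 15 in both libraries, with medians of -2.77 and -4.05. Mki67, a marker of cycling cells, was found in 2 cocktail and 3 vehicle Atoh1-high cells, against 37 and 37 matched cells. Of 16 tested interferon response genes, 8 were at least 2-fold lower in both libraries; the antiviral gene Ifit1 was at -2.74 (-3.18 to -2.35) and -2.14 (-2.67 to -1.68). Among 14 genes of the p53 pathway, 1 was at least 2-fold higher in both libraries, near the share of all tested genes (4.96%). It was Pmaip1, which encodes the cell death protein Noxa, at 1.55 and 2.24. Cdkn1a, which encodes the cell cycle inhibitor p21, stood at 613 CPM in Atoh1-high and 272 CPM in matched cocktail cells, and at 784 and 484 CPM in the vehicle library. The median of this list was 0.28 in cocktail and 0.53 in vehicle cells.

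No difference was detectable for Mxi1, the target of siMxi1, which was at -0.01 (-0.33 to 0.29) in cocktail and 0.11 (-0.21 to 0.42) in vehicle cells. Cxadr, which encodes the main receptor for adenovirus entry, was lower in Atoh1-high cells, at -0.64 (-0.99 to -0.32) and -0.72 (-1.15 to -0.34). Of 7 tested genes of adenovirus entry, 1 was at least 2-fold lower in both libraries and 0 were higher, against 9.98% and 4.96% of all tested genes. That gene, the integrin gene Itgb3, was named after its values were seen and had a UMI in 4 cocktail and 1 vehicle Atoh1-high cells, against 22 and 18 matched cells. The 13 mitochondrially encoded genes had medians of 0.55 and 0.55, with 0 at least 2-fold higher in both libraries.

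**Figure D2:**
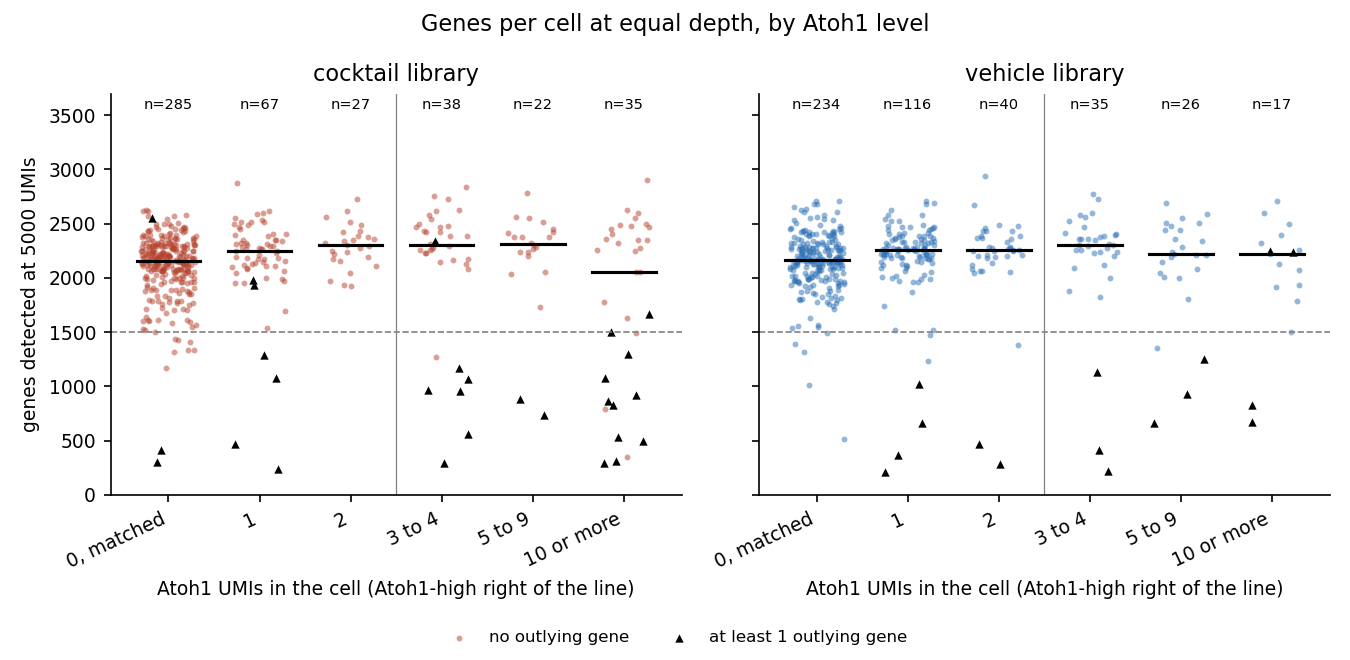
Number of genes detected per cell at 5000 UMIs, by Atoh1 UMIs in the cell, in the cocktail (left) and the vehicle library (right); points are cells, black bars are medians, triangles are cells with an outlying gene, and Atoh1-high cells lie right of the vertical line. Most cells of every group lie near the medians, and 21 cocktail and 9 vehicle Atoh1-high cells lie below the dashed line at 1500 genes.

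At equal depth, most Atoh1-high cells held slightly more genes than matched cells, and a minority held far fewer. The median number of genes at 5000 UMIs was 2281 in Atoh1-high and 2160 in matched cocktail cells, and 2256.5 and 2164 in the vehicle library. Without thinning, Atoh1-high cells had 199.6 genes per 1000 UMIs against 220.2 in matched cocktail cells, and 234.3 against 238.5 in the vehicle library. At 5000 UMIs the lowest Atoh1-high cell had 296 genes among cocktail and 215 genes among vehicle cells. Cells with under 1500 genes at 5000 UMIs, a limit chosen after the data were seen, were 21 of 95 cocktail Atoh1-high cells (22.1%, 14.2% to 31.8%) against 3.16% of matched cells. In the vehicle library they were 9 of 78 Atoh1-high cells (11.5%, 5.41% to 20.8%) against 2.14% of matched cells. Near the limit, between 1200 and 1800 genes, lay 8 cocktail and 4 vehicle Atoh1-high cells. In low-complexity Atoh1-high cells the 10 most abundant genes took a median of 50.0% of UMIs in cocktail and 52.5% in vehicle cells, against 9.39% and 9.03% in the remaining Atoh1-high cells. They had little mitochondrial RNA, with medians of 0.74% and 0.76%, and 81.0% and 66.7% of them reached 3 markers of none of the 3 identity lists. In the cells inside the gate with at least 3 Atoh1 UMIs, 0 of 28 cocktail and 0 of 23 vehicle cells were of low complexity, which allows shares of up to 10.7% and 13.0%, taking 3 counts as the limit behind a count of 0.

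**Figure D3:**
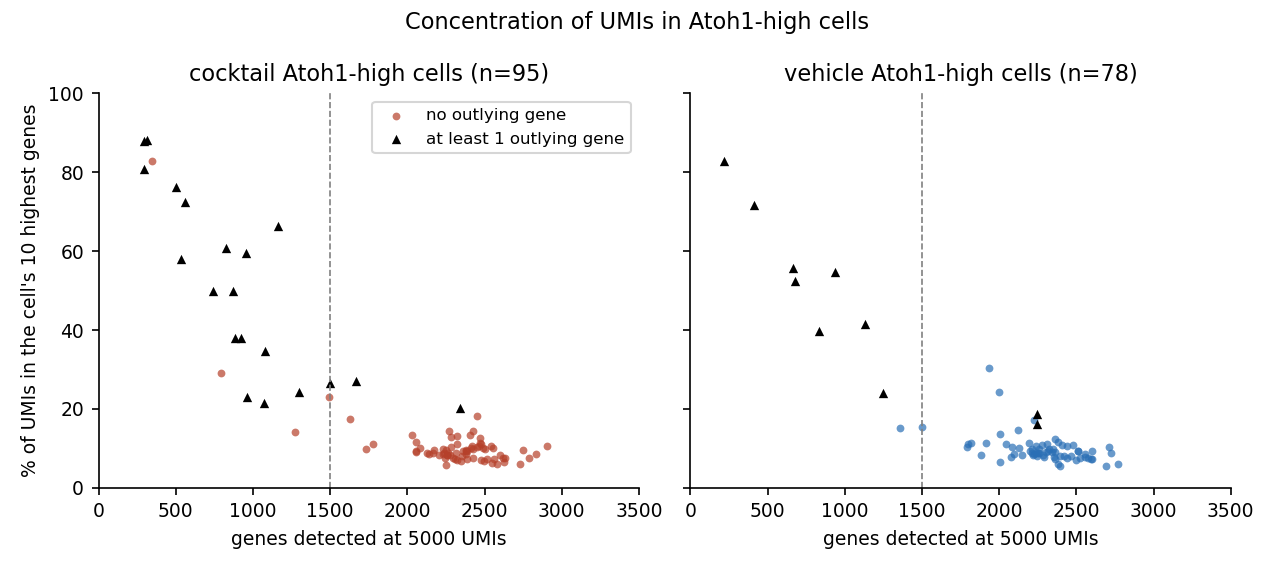
Share of a cell's UMIs in its 10 most abundant genes, in percent, against the number of genes detected at 5000 UMIs; each point is 1 Atoh1-high cell of the cocktail (left) or the vehicle library (right), a triangle marks a cell with an outlying gene, and the dashed line stands at 1500 genes. Of the triangles, 17 of 20 cocktail and 8 of 10 vehicle cells lie left of the line, where the 10 most abundant genes take a median of 50.0% of UMIs in cocktail and 52.5% in vehicle cells.

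In these cells a single gene could take a large part of the library. Such a gene is called outlying here; it had to reach 1% of all UMIs in a cell, and 20 times its share in the cell that held the third place for that gene. At least 1 such gene was found in 24 of 101 cocktail Atoh1-high cells (23.8%, 15.9% to 33.3%), against 1.65% of matched cells. In the vehicle library it was found in 14 of 87 (16.1%, 9.09% to 25.5%), against 0 of 261 matched cells, whose interval reached 1.40%. The 58 cocktail and 28 vehicle cases were all of distinct genes, with up to 6 in 1 cell. That they were distinct was largely fixed by the rule, under which a gene can be outlying only in cells above the third place. A gene abundant in more cells is not called. Mgat4b, for example, was the most abundant gene of 1 vehicle Atoh1-high cell at 11.5% of UMIs and of another at 19.4%, and was outlying in neither. The largest were Tjp1, a tight junction gene, at 53.8% of 1 cocktail cell's UMIs, and Dgkz, a lipid kinase gene, at 23.7% of 1 vehicle cell's. Among low-complexity Atoh1-high cells, 81.0% of cocktail and 88.9% of vehicle cells had an outlying gene, against 4.05% and 2.90% of the rest. The non-coding gene Gm44511 (6:128780285-128826315, minus strand, GRCm38), chosen after its values were seen, had at least 3 UMIs in 90.5% of cocktail and 88.9% of vehicle low-complexity Atoh1-high cells, against 13.5% and 5.80% of the rest. The part of low complexity in the differences above was not tested beyond leaving these cells out.

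**Figure D4:**
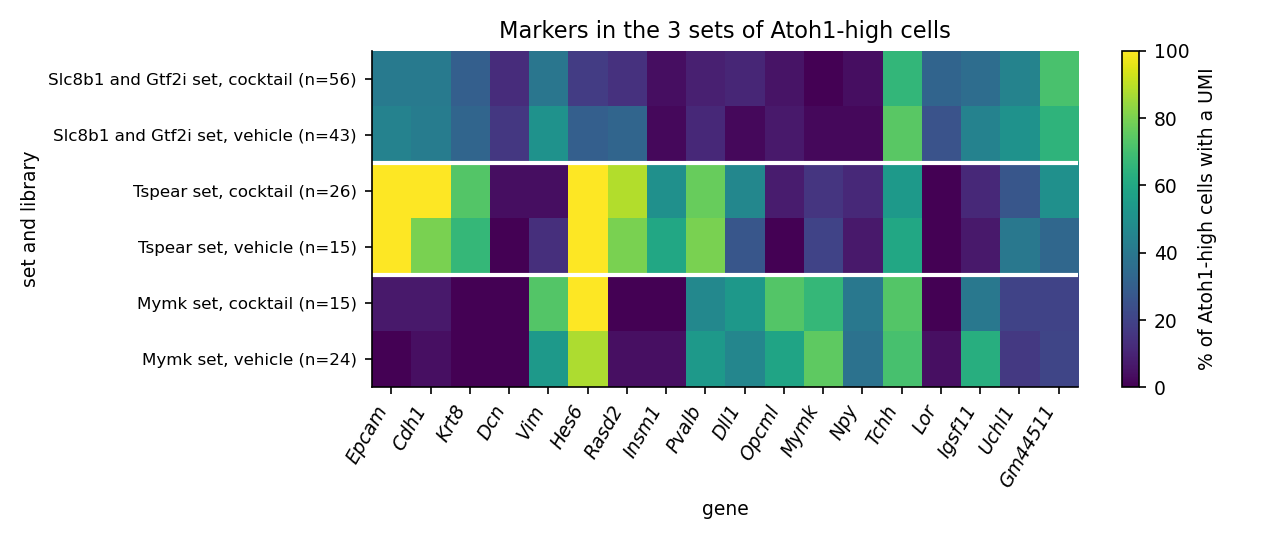
Share of Atoh1-high cells with at least 1 UMI of 18 genes, in percent, in the 3 sets named by leading genes, for the cocktail and the vehicle library. Epcam is found in all cells of the Tspear set and in at most 1 of 15 cells of the Mymk set, while Tchh is found in over 53% of the cells of every set.

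When all kept cells were clustered, the Atoh1-high cells fell mainly into 3 sets, which were grouped after the clusters were seen and are named by leading genes. The first, called the Slc8b1 and Gtf2i set, was 1 cluster that gained no cell type name from the markers. It held 56 cocktail (55.4%) and 43 vehicle (49.4%) Atoh1-high cells, against 2.64% and 0.766% of matched cells, and all 30 low-complexity Atoh1-high cells were in it. Low complexity was not particular to Atoh1-high cells, since 20 of the 80 other cells of this cluster had it too. Outlying genes were likewise found in 38 of those 80 cells. In another cluster with 2 Atoh1-high cells they were found in 25 of the 148 other cells. Of the 3 sets, Atoh1 was highest in the Slc8b1 and Gtf2i set, with medians of 12.5 UMIs in cocktail and 7 UMIs in vehicle Atoh1-high cells. Hes6 was found in only 17.9% of its cocktail and 30.2% of its vehicle Atoh1-high cells, but Tchh in 66.1% and 74.4%. Epithelial identity, at 3 markers, was found in 27.5% and 37.8% of them, and at least 3 hair cell regulators in 3.92% and 5.41%. Depth was also lower, at a median of 18458 UMIs in cocktail and 13810 UMIs in vehicle cells.

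The second, the Tspear set, was formed by 2 clusters led by Tspear, Sntg1 and Otof, and held 26 cocktail (25.7%) and 15 vehicle (17.2%) Atoh1-high cells. Its clusters were shared with cells inside the Gal and Cck gate, which were 119 of the 333 cells of 1 cluster and 27 of the 53 cells of the other. The Tspear set was epithelial, with at least 3 epithelial markers in 96.2% of cocktail and 92.9% of vehicle Atoh1-high cells. Epcam was found in 100% and 100% of them, Cdh1 in 100% and 80.0%, and Hes6 in 100% and 100%. At least 3 hair cell regulators were found in 46.2% and 78.6%, and at least 3 supporting cell markers in 69.2% and 57.1%. Rasd2 was found in 88.5% and 80.0%, Insm1, a zinc finger factor of early outer hair cells, in 50.0% and 60%, and Pvalb in 76.9% and 80.0%. The third, the Mymk set, was formed by 2 clusters led by Opcml, Mfap4 and Mymk, and held 15 cocktail (14.9%) and 24 vehicle (27.6%) Atoh1-high cells. Here 0 of 15 and 0 of 23 cells reached 3 epithelial markers, and Epcam had a UMI in 6.67% and 0%. Hes6 was nonetheless found in 100% of its cocktail and 87.5% of its vehicle cells, and Dll1 in 53.3% and 45.8%. Npy, which encodes a neuropeptide, was found in 40.0% and 37.5%. At least 3 mesenchymal markers were found in 33.3% and 30.4%, and at least 3 glial markers in 13.3% and 21.7%. The remaining 4 cocktail and 5 vehicle Atoh1-high cells lay in other clusters. Since the sets come from clustering on variable genes of these same cells, these values describe the sets and test nothing.

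Within the sets, Atoh1-high cells were set against cells of the same set, library and depth with 0 Atoh1 UMIs, again leaving out the highest cell of each group. These 0-Atoh1 cells could lie inside the Gal and Cck gate, which the Atoh1-high cells by rule could not. In the Tspear set, with 26 cocktail and 15 vehicle pairs, 131 of 6440 tested genes (2.03%) were at least 2-fold higher in both libraries and 38 (0.59%) at least 2-fold lower. Rasd2 was higher, at 1.80 (1.19 to 2.49) in cocktail and 2.18 (1.29 to 3.31) in vehicle cells, and Tchh at 2.60 (1.65 to 3.86) and 1.85 (1.04 to 2.81). Espn, which encodes an actin bundler of stereocilia, was at 1.42 (0.38 to 2.66) and 1.25 (0.21 to 2.51). Hes6 was at 0.02 (-0.21 to 0.24) and 0.59 (0.19 to 1.0), and Epcam at 0.43 and 0.64. In the Mymk set, with 12 and 23 pairs, 76 of 5390 tested genes (1.41%) were at least 2-fold higher in both libraries and 31 (0.575%) lower. Opcml was at 1.94 (1.30 to 2.68) and 1.78 (1.10 to 2.57), Dll1 at -0.01 and -0.11, and Hes6 at -0.38 and -0.49. Tchh was at -0.06 (-0.86 to 0.74) in cocktail and 2.06 (1.28 to 3.00) in vehicle cells of that set. In the Slc8b1 and Gtf2i set, only 14 of 56 cocktail and 13 of 43 vehicle Atoh1-high cells found a pair, with the deepest matched first. The rest were left out, so the ratios do not describe the whole set. Among these pairs, 118 of 1695 tested genes (6.96%) were at least 2-fold higher in both libraries and 36 (2.12%) lower. Ccng1, a cyclin gene induced by p53, was at 2.32 (1.09 to 4.15) and 1.98 (0.69 to 3.83) there. Slc8b1 was at -2.39 and -8.24 in its own set, but its direction in cocktail cells depended on leaving out the highest cell, since all pairs together held 83 Slc8b1 UMIs in Atoh1-high and 55 in 0-Atoh1 cells. In vehicle cells the sums were 4 and 502 Slc8b1 UMIs. Tchh was at -0.21 (-1.47 to 1.04) and 0.82 (-0.61 to 2.56). The genes named in this paragraph, other than those named above, were chosen after their values were seen.

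**Figure D5:**
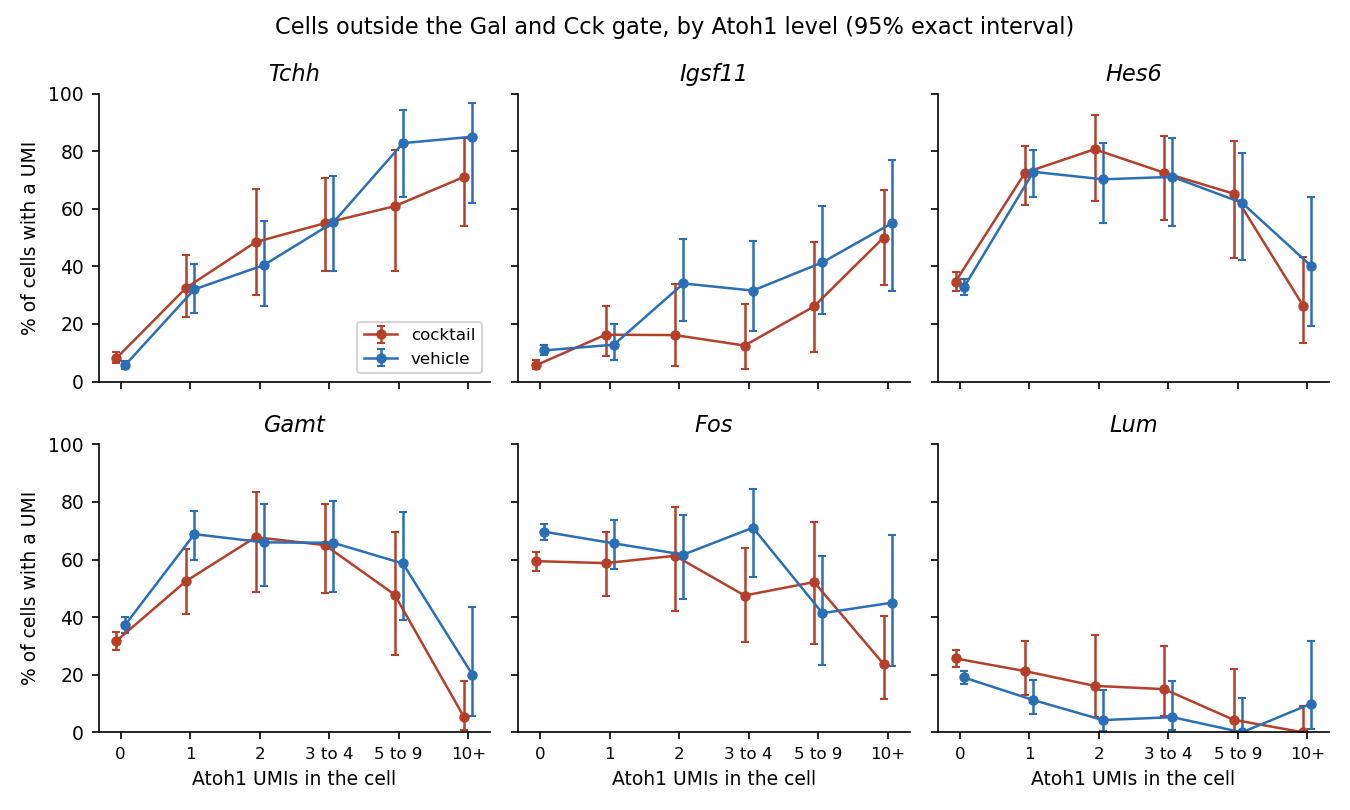
Share of cells outside the gate with at least 1 UMI of each of 6 genes, in percent, against the number of Atoh1 UMIs in the cell, for the cocktail (red) and the vehicle library (blue); bars are 95% exact binomial intervals. Tchh reaches 71.1% of cocktail and 85.0% of vehicle cells with at least 10 Atoh1 UMIs, whereas Hes6 is found in 26.3% and 40.0% of those cells and in over 70% of cells with 1 or 2.

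Few genes followed the Atoh1 level within the Atoh1-high cells. The measure was a rank correlation across cells with Atoh1 per 10000 UMIs, given total UMIs, over 101 cocktail and 87 vehicle cells that share their library. Of 6800 genes found in at least 25% of Atoh1-high cells of each library, 2 (0.0294%) reached 0.3 in both libraries and 95 (1.4%) reached -0.3 in both. The 2 were Esd, a gene of formaldehyde detoxification, at 0.31 in cocktail and 0.40 in vehicle cells, and Tchh, at 0.31 and 0.32. S100a10, which encodes the binding partner of annexin A2, was next at 0.30 and 0.45, short of the limit in the cocktail library. It lies on the same chromosome as Tchh, at 3:93555080-93564643 on the plus strand (GRCm38). Mapk9, Rhoc, Serpinb6a, Ctsh, Mgst1, Vasn and Smim3 completed the first 10, between 0.26 and 0.39 in the cocktail library and between 0.27 and 0.36 in the vehicle library. Both calls depended on the term for total UMIs. Without it, Esd was at 0.19 and 0.43 and Tchh at 0.19 and 0.21, and neither was among the 3 genes that reached 0.3 in both libraries. Without the 5% of cells highest in Atoh1, 4 genes reached it, 1 of them Esd or Tchh. Over all 6800 genes the median was -0.11 and -0.04. Without low-complexity cells, 48 of 7595 genes reached 0.3 in both libraries, and both Esd and Tchh were among them.

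By Atoh1 count, Tchh was found in 8.14% of cocktail cells outside the gate with 0 Atoh1 UMIs, 32.5% with 1, 48.4% with 2, 55.0% with 3 to 4, 60.9% with 5 to 9 and 71.1% with at least 10. In the vehicle library the Tchh shares were 5.57%, 32%, 40.4%, 55.3%, 82.8% and 85.0%. Each step in the Atoh1 count thus had a higher share of cells with Tchh in both libraries, though neighbouring intervals overlapped above 0. Inside the gate, Tchh was found in 75.0% of cocktail and 58.3% of vehicle cells with at least 3 Atoh1 UMIs. Igsf11, an adhesion gene chosen after its values were seen, was found in 5.65% of cocktail cells with 0 Atoh1 UMIs and 50.0% with at least 10, and in 10.8% and 55.0% of vehicle cells. Lor was found in 1.58% of cocktail cells with 0 Atoh1 UMIs and 28.9% with at least 10, and in 0.858% and 25% of vehicle cells. Cells with 0 Atoh1 UMIs outside the gate had lower median depths, at 8739 UMIs for cocktail and 10426 UMIs for vehicle cells, and part of each share with a UMI follows depth.

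With all cells outside the gate pooled, the known targets did not follow the level. Hes6 was found in 34.7% of cocktail cells outside the gate with 0 Atoh1 UMIs, 72.5% with 1, 80.6% with 2, 72.5% with 3 to 4, 65.2% with 5 to 9 and 26.3% with at least 10. In the vehicle library the Hes6 shares were 32.7%, 72.8%, 70.2%, 71.1%, 62.1% and 40.0%. Hes6 was thus most frequent at 1 to 4 Atoh1 UMIs and least frequent among the Atoh1-high cells where Atoh1 was highest. These steps pooled the 3 sets. Median Atoh1 was 12.5 UMIs in cocktail and 7 UMIs in vehicle cells of the Slc8b1 and Gtf2i set, where Hes6 was less frequent than in the other sets. It was 4 and 4 UMIs in the Tspear set and 3 and 4 UMIs in the Mymk set. The part of the sets in these trends was not tested. Dll1 had the same shape in cocktail cells, at 5.20%, 22.5%, 41.9%, 35%, 30.4% and 13.2%, and was found in 6.26%, 23.2%, 14.9%, 23.7%, 20.7% and 10.0% of vehicle cells. Over the 3 hair cell regulators frequent enough to rank, the median correlation with Atoh1 was -0.39 in cocktail and -0.29 in vehicle cells. The 5 most negative genes were Gamt, a gene of creatine synthesis, at -0.60 and -0.43, the ganglioside synthase gene St3gal5 at -0.52 and -0.47, the septin gene Sept3 at -0.54 and -0.45, Ivns1abp at -0.48 and -0.46, and Lamtor4 at -0.45 and -0.44. In cells with at least 10 Atoh1 UMIs, 34.3% of cocktail and 11.8% of vehicle cells were of low complexity, and the part of that in these trends was not tested beyond leaving such cells out.

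Between the libraries, cocktail and vehicle Atoh1-high cells differed by at least 2-fold in 579 genes higher in cocktail (4.82% of 12018) and 588 genes lower (4.89%). The largest ratios rested on few cells. Apoc3, an apolipoprotein gene, was found in 24 cocktail and 6 vehicle Atoh1-high cells, at a log2 ratio of 6.27 (5.42 to 7.48). Matn2, a matrix gene, was found in 20 cocktail and 17 vehicle cells, at 5.29, and Lca5l in 18 and 14 cells, at 5.05. Lockd and Cfap45 were at 4.75 and 5.10, from 16 and 7 cocktail cells, and Il12rb1 was at 6.62 from 4 cocktail cells. On the other side, Tmem132c was found in 35 cocktail and 31 vehicle cells, at -2.61 (-2.92 to -2.32), and Wdcp in 23 and 31 cells, at -3.51 (-3.99 to -3.08). Dnase1l3, Dscam, Ly6g6c and Ankrd35 were at -4.47, -4.70, -3.70 and -3.25, each from at most 11 cells of a library. With the highest cell kept, Dnase1l3 was the other way round, at 440 CPM in cocktail and 211 CPM in vehicle Atoh1-high cells. Rasd2, Hes6 and Dll1 were at 0.02 (-0.34 to 0.39), 0.19 (0.01 to 0.37) and 0.56 (-0.11 to 1.28), and Tchh at -0.31 (-0.53 to -0.09). With 1 library a group, treatment and library cannot be told apart.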

How the data were processed

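Gene counts were the authors' deposited UMI counts, 1 gene-by-cell matrix per library over 31053 genes, and per the file headers Cell Ranger 5.0.0 wrote them. Seurat 3.2.2 and STAR, with the builds GRCm38 and mm10, also appear in the submitters' processing notes; which step each served is not given in the sources used here. Everything else was computed from the counts with Python 3.11.15, numpy 2.4.6, pandas 2.3.3, SciPy 1.17.1 and Scanpy 1.11.5. Figures were drawn with matplotlib 3.10.9.

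The cells and the 23 gene lists were chosen with earlier results of these data known; Mx2 and Mir99ahg of those lists were not found in the files. Atoh1-high cells were matched 3 to 1 to cells with 0 Atoh1 UMIs on log10 total UMIs (nearest, within 0.1, without replacement, deepest cell first). Genes needed 20 UMIs in Atoh1-high plus matched cells of each library. Ratios used summed counts with a prior of 0.5 counts, exact conditional intervals for ratios and Clopper-Pearson intervals for shares. A 2-fold difference in both libraries was counted as a call, with no test. Correlations were partial Spearman coefficients. All kept cells were clustered on 2000 variable genes and 30 principal components, with 15 neighbours and Leiden resolution 1.0, into 26 clusters. Ratios, correlations and thinning were tested on simulated data.

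Named genes were the first 12 in each direction by the interval bound nearest 0, up to 3 per list and direction, the first 10 rising and 5 falling with Atoh1, 6 in each direction between libraries, and 17 fixed names, of which 2 are not reported here. Mitochondrial, ribosomal, haemoglobin, sex-linked and unnamed genes were left out of the first rule. Positions came from GENCODE M21 and sequences from RefSeq.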

Additional observations from a re-analysis of the deposited data

Results flagged for a closer look

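The summed mature hair cell list lay on opposite sides of matched cells in the 2 libraries, at a log2 ratio of -0.10 in cocktail and 0.49 in vehicle Atoh1-high cells. Pvalb, a member of that list, did the same, at -0.65 in cocktail and 0.33 in vehicle cells. The median level per cell of the list, however, was above matched cells in both libraries. It was 202 against 159 CPM in cocktail and 271 against 187 CPM in vehicle cells. With 1 library a group, the difference between libraries was not tested in either case.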

How the results depend on the processing

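The share of kept cells that were Atoh1-high, 7.60% in cocktail and 5.49% in vehicle cells, moved with the limits: 9.93% and 8.46% at 2 Atoh1 UMIs, 4.59% and 3.09% at 5, 11.5% and 6.74% among cells of at least 5000 UMIs, 5.42% and 3.54% with a gate on either gene, and 5.21% and 3.02% after thinning. Epithelial list ratios were -0.11 in cocktail cells at 5 Atoh1 UMIs, -0.42 without low-complexity cells and 0.40 as a mean over cells, a change of sign; in vehicle cells they were -0.77 with 1 matched cell and -0.51 as a mean over cells. Glial list ratios in cocktail cells were -0.47 with 1 matched cell, -1.19 at 5 Atoh1 UMIs, -0.44 without low-complexity cells and -1.41 as a mean over cells; in vehicle cells the last 3 were -0.84, -0.73 and -1.69. Mesenchymal list ratios in vehicle cells were -2.08 with matched cells outside the gate, -2.04 with 1 matched cell, -2.58 at 5 Atoh1 UMIs and -2.19 as a mean over cells. The excess of genes per cell was 58.5 and 46 at 2000 UMIs, and 203 in cocktail cells at 10000 UMIs.

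Genes at least 2-fold higher in both libraries numbered 2378 with no filter on low counts, and those lower 816 with 1 matched cell. Genes rising with Atoh1 numbered 9 among cells of at least 5000 UMIs, 4 without the 5% of cells highest in Atoh1 and 48 without low-complexity cells; those falling numbered 1210 without the depth term and 46 at 50% detection. Outlying genes were found in 14.9% of cocktail and 4.6% of vehicle Atoh1-high cells at 50 times, and in 4.05% and 2.90% without low-complexity cells, against 0.45% of matched cocktail cells. Between libraries, calls numbered 284 and 260 at 50 UMIs, and 2407 and 2002 with no filter.

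Directions reversed in cocktail cells for Pou4f3 (0.0015) and Cabp2 (0.0071) with 1 matched cell, Pou4f3 (0.70) with the highest cell kept, Npy (-0.75) at 5 Atoh1 UMIs and Mapk9 (-0.019) without the depth term, and in vehicle cells for Otof (-0.46) at 5 Atoh1 UMIs. The cause was not tested. Leaving out low-complexity cells was chosen after seeing the data. No paired analysis was possible because each group is 1 library and no result comes from a test. Depth limits the rare genes, such as Pou4f3, to a few cells.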
